A study of Mus musculus with 39 samples.

Results

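The unfolded protein and integrated stress genes are a set of 34 genes taken by their gene name from deposited expression tables that together list 30671 genes. All 34 were found. By role they were 14 chaperones and folding enzymes of the endoplasmic reticulum (ER), 7 genes of ER-associated degradation, 6 stress sensors and transcription factors, 5 ATF4 targets and feedback genes and 2 genes of protein translocation into the ER. Poly-A RNA of C57Bl6/J mice was sequenced in 3 tissues, the liver, the skeletal muscle and the white fat, called WAT below. In the PCOS roxadustat arm, letrozole, an aromatase inhibitor, was given before puberty to model polycystic ovary syndrome (PCOS), and roxadustat, a drug that stabilises hypoxia-inducible factor by blocking its prolyl hydroxylases, was given by mouth for 6 weeks from 12 weeks of age. The PCOS vehicle arm had the same letrozole treatment and received vehicle over those weeks. The control vehicle arm was not described as given letrozole and received vehicle. The PCOS roxadustat, PCOS vehicle and control vehicle arms held 4 mice each in liver and in muscle, and 5, 6 and 4 mice in WAT. The 39 libraries came from 18 mice, so that 9 mice gave all 3 tissues, 3 mice gave 2 and 6 mice gave 1. The fat depot and the muscle were not named.

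As background, proteins that enter the ER are folded with the help of chaperones, and unfolded proteins set off the unfolded protein response through the membrane sensors IRE1, PERK and ATF6. IRE1, encoded by Ern1, splices the Xbp1 transcript so that it yields an active transcription factor. ATF6 is cut in the Golgi and its free part enters the nucleus, where ATF6 and spliced XBP1 raise chaperone and degradation genes. PERK, encoded by Eif2ak3, phosphorylates the translation factor eIF2alpha, which slows protein synthesis while favouring translation of ATF4. Other kinases that sense lack of amino acids, haem or viral RNA act on the same factor, and this shared arm is the integrated stress response. Liver and fat cells secrete large amounts of protein, and the response has been studied in both in obesity. Gene-level values do not separate spliced from unspliced Xbp1, and phosphorylation and cleavage of the sensors are not seen in RNA.

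The motifs that connect these genes to their factors were looked for in promoter windows from RefSeq (GRCm38.p6), which cover 250 bases before to 50 bases after each gene start. Of the 34 members, 30 had an entry. Manf, Hyou1, Derl1 and Atf6 had none. The ER stress element, ERSE (CCAAT and CCACG with 9 bases between them), is known as the site of ATF6 with the factor NF-Y and also of XBP1. It was found on either strand in 9 of 30 members, against 39 of 32851 promoters of the same length (0.119%). These members were Hspa5, Hsp90b1, Calr, Canx, Pdia6, Dnajc3, Creld2, Syvn1 and Derl3. Hsp90b1 held it at 2 places. The 32851 promoters are counted by entry and include the 31 entries of the 30 members. ERSE-II (ATTGG and CCACG with 1 base between them) was found in Dnajb11 and Herpud1, 6.67% of the members, against 0.0365% of all promoters. The part CCACG is shared by ERSE and ERSE-II, and its reverse complement lies in the UPRE motif (TGACGTGG), an XBP1 and ATF6 site. UPRE was in 0 of 30 members, against 0.676% of all promoters. The CARE motif (TGATGNAA), the site of ATF4 with C/EBP factors, was in Asns, Chac1, Trib3 and Herpud1, 13.3% of the members, against 3.97% of all promoters. The motifs were chosen as known sites of the factors of these genes. Their shares among the members are therefore not independent support for the set. A match is a description of letters and not a measured site, and a missing match says only that the letters are not in this window.

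The ERSE windows below are shown because Hspa5 and Dnajc3 were among the members with non-overlapping groups in WAT and Canx among those in liver, and Hsp90b1 because it holds the motif at 2 places. Each runs 5′ to 3′ along the motif, with the motif in capitals and 10 bases on each side.
Hspa5 (chr2:34772015-34772053, plus strand): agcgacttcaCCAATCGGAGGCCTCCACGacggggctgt
Dnajc3 (chr14:118937817-118937855, plus strand): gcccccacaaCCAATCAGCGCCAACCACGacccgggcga
Canx (chr11:50325790-50325828, minus strand): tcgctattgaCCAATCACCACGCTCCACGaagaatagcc
Hsp90b1 (chr10:86705523-86705561, plus strand): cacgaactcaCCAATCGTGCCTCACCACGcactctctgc
Hsp90b1 (chr10:86705628-86705666, minus strand): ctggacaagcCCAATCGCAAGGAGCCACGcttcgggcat
Calr (chr8:84847065-84847103, plus strand): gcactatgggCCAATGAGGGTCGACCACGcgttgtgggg
In these windows the CCAAT and CCACG ends are fixed by the search and the 9 bases between them differ from gene to gene. In WAT, Edem1, Sel1l, Eif2ak3, Ppp1r15a and Sec61b also had non-overlapping groups of PCOS roxadustat and control mice and held none of the motifs. Hyou1 and Atf6 did not overlap there either and had no entry. The ERSE holders Hsp90b1, Calr, Canx, Pdia6, Creld2, Syvn1 and Derl3 overlapped in that comparison.

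The ERSE-II of Herpud1, an ER membrane protein of the degradation complex, and the CARE motifs of Asns, asparagine synthetase, and Chac1, an enzyme that breaks down glutathione, are shown in the same way, since Asns was higher in every WAT library, and Chac1 in every muscle library, than in any library of the other tissues.
Herpud1 (chr8:94386367-94386397, plus strand): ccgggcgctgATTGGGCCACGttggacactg
Asns (chr6:7693215-7693242, minus strand): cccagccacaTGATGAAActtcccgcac
Chac1 (chr2:119351039-119351066, minus strand): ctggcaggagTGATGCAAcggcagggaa
The 250 bases before the start of Hspa5, which encodes the chaperone BiP, and of Edem1, which marks misfolded glycoproteins for degradation, are given because these were the members called in most fits in WAT. The ERSE of Hspa5 is in capitals. Edem1 held none of the 4 motifs in its window, and neither did Sel1l and Sesn2, which were called in WAT too.
Hspa5 (chr2:34771840-34772089, plus strand): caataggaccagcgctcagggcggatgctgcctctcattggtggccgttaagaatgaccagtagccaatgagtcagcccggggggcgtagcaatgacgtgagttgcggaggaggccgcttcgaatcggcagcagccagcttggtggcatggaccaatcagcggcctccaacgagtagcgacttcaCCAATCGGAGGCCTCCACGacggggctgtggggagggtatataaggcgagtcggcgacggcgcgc
Edem1 (chr6:108828391-108828640, plus strand): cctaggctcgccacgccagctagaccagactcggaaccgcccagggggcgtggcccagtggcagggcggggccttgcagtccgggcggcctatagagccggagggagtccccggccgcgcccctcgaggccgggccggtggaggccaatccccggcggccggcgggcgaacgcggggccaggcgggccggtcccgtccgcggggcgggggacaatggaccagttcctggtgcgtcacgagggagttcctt

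**Figure D1:**
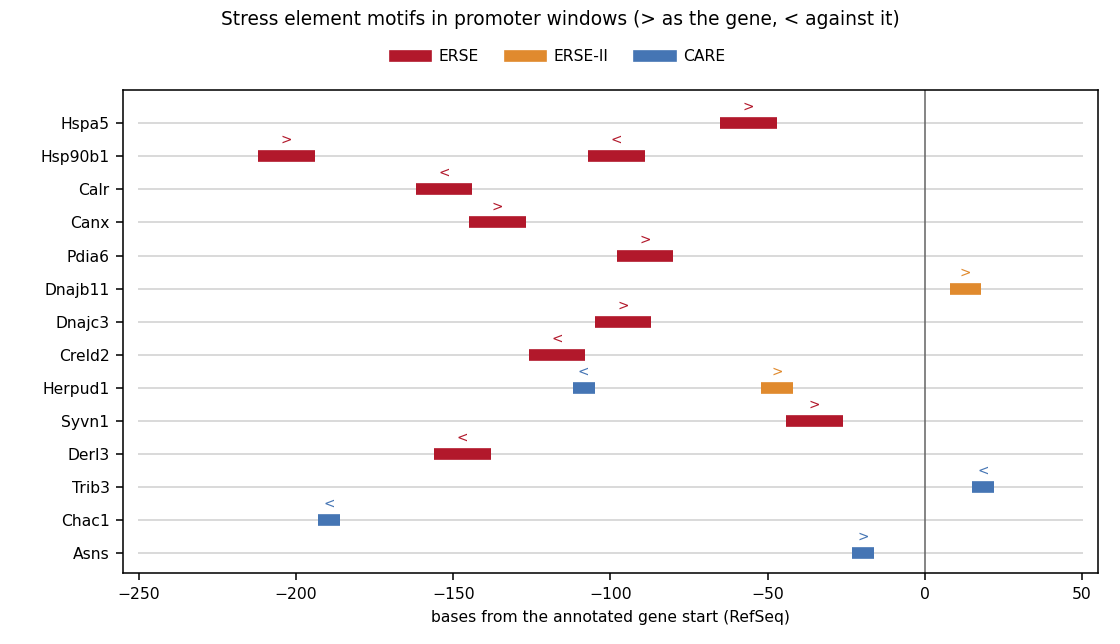
Position of ERSE, ERSE-II and CARE matches in the promoter windows of the 14 members that hold one. The x axis gives bases from the annotated gene start, negative before it, and a mark above each match gives its direction relative to the gene. The ERSE matches lie 26 to 212 bases before the start, and those of Dnajb11 (ERSE-II) and Trib3 (CARE) lie after it.

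Levels are in FPKM, the fragments of a gene divided by its length and by a library size set by the authors. Liver libraries held 12389970 to 19350634 reads recovered from these values, muscle libraries 14332757 to 18627919 and WAT libraries 13664558 to 19639244. Arms were compared with limma on log2(FPKM + 0.5), and a gene is said to be called, or to have risen or fallen, at an adjusted p under 0.05 over all genes tested. The authors' scaling differed by tissue, with an implied library size of 1.26 to 1.59 times the recovered reads in WAT against 0.697 to 0.864 times in muscle and 0.776 to 0.931 times in liver. Hepatocyte markers summed to at least 59221 FPKM in liver, muscle fibre markers to at least 58942 FPKM in muscle and adipocyte markers to at least 5512 FPKM in WAT. Of the 7 hepatocyte markers, Cyp2e1 alone reached 472 FPKM or more in WAT, where Alb did not exceed 60.7 FPKM. In 8 libraries under 1000 genes had 1 to 3 reads, the lowest being 316 in WAT of PCOS vehicle mouse 785. These were control mice 801 and 804 in liver, and PCOS roxadustat mouse 782, PCOS vehicle mice 785, 796 and 822 and control mice 778 and 789 in WAT. Comparisons of arms within a tissue that used these libraries were also computed without them. Differences between tissues were not. In bulk tissue, fewer cells of a type and less RNA per cell cannot be told apart.

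Each tissue had its own order of levels. In control livers the calcium-binding chaperone Calr was highest at 232 ± 58.9 FPKM (SD, n = 4), followed by Herpud1 at 159 ± 33.3, the disulfide isomerase Pdia3 at 136 ± 62.0, Hsp90b1, the ER form of HSP90, at 129 ± 23.5 and Hspa5 at 112 ± 41.9 FPKM. The ranges of these neighbours overlapped. In control muscle Atf4 came first at 80.7 ± 5.53 FPKM, before Chac1 at 71.7 ± 10.9, Herpud1 at 70.7 ± 7.66 and Calr at 58.4 ± 2.85 FPKM (n = 4), and only the range of Calr stood clear of the next gene, Hspa5. In control WAT the retrotranslocation channel gene Derl1 was first at 69.7 ± 8.14 FPKM, then Calr at 65.0 ± 13.4 and Xbp1 at 48.8 ± 3.46 FPKM (n = 4), with overlapping ranges. At the low end stood Asns in liver, at 0.166 ± 0.184 FPKM, and Derl3 at 0.117 ± 0.136 FPKM in muscle and 0.235 ± 0.202 FPKM in WAT (n = 4 each).

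Over all libraries and arms, Chac1 was the 1 member higher in every muscle library, and Asns the 1 member higher in every WAT library, than in any other tissue. Chac1 ranged from 31.8 to 149.6 FPKM in muscle, against 0.458 to 3.30 FPKM in liver and 0.733 to 5.25 FPKM in WAT. Asns ranged from 14.0 to 36.7 FPKM in WAT, against 0 to 1.63 FPKM in liver and 0.197 to 0.892 FPKM in muscle. In liver that is 0 to 58 reads, and in muscle 6 to 30. A further 10 members, Hsp90b1, Calr, Pdia3, Pdia4, Sdf2l1, Manf, Herpud1, Syvn1, Derl2 and Ern1, were higher in every liver library than in any library of the other tissues. Since the tables were scaled separately, this holds for 5 of them (Hsp90b1, Calr, Herpud1, Derl2 and Ern1) when reads are divided by gene length and by all reads of the library instead, a scale on which Chac1 in muscle and Asns in WAT stayed above all other libraries, and Derl1 in WAT was above them too. On the lower side, 8 members were lower in every muscle library than in any library of the other tissues in FPKM, and 17 on the scale of all reads. For WAT these counts were 2 (Herpud1 and Atf4) and 1 (Herpud1), and for liver 0 on both scales. The share of all genes that separate tissues in this way was not computed. Levels across tissues are given as descriptions, with no test.

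**Figure D2:**
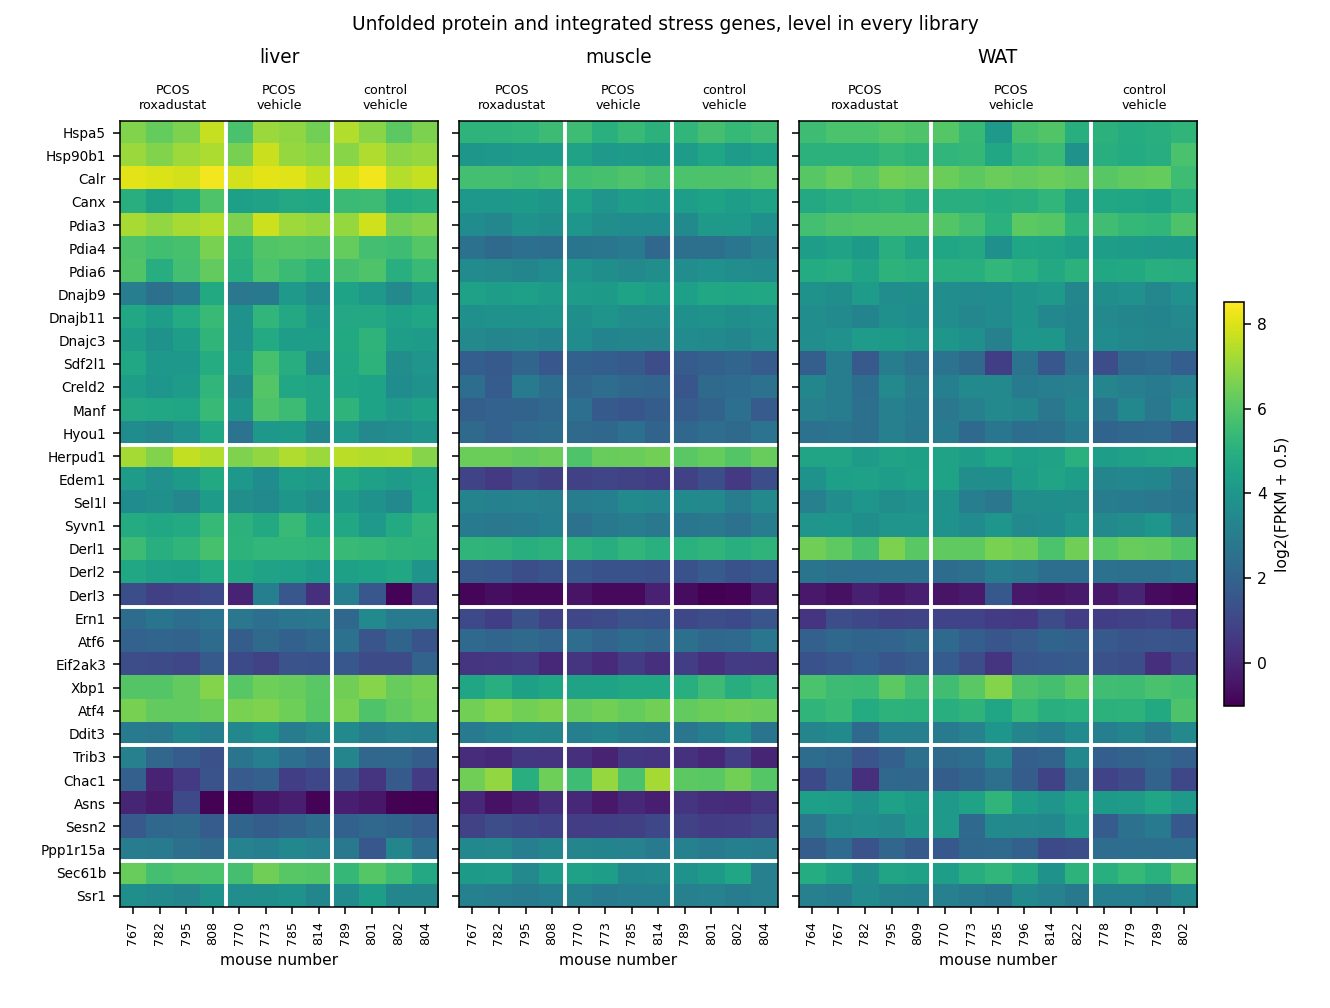
Heat map of log2(FPKM + 0.5) of the 34 members, grouped by role, in each of the 39 libraries, which are ordered by tissue, arm and mouse number. The bright Chac1 row in muscle (31.8 to 149.6 FPKM), the Asns row in WAT (14.0 to 36.7 FPKM) and the Calr row in liver (175 to 325 FPKM) stand out, while arms within a tissue look alike at this scale.

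The sensors were low in every tissue. Ern1 ranged from 4.02 to 11.1 FPKM in liver, 1.22 to 2.33 FPKM in muscle and 0.844 to 1.85 FPKM in WAT. Atf6 ranged from 2.27 to 5.43 FPKM in liver, 3.74 to 6.06 FPKM in muscle and 2.24 to 4.42 FPKM in WAT. Eif2ak3 ranged from 1.29 to 3.56 FPKM in liver, 0.570 to 1.16 FPKM in muscle and 0.702 to 3.06 FPKM in WAT. Of the transcription factors, Xbp1 and Atf4 had higher levels. Xbp1 ranged from 60.9 to 109 FPKM in liver, 20.6 to 45.6 FPKM in muscle and 44.3 to 105 FPKM in WAT. Atf4 ranged from 59.2 to 102 FPKM in liver, 74.0 to 105 FPKM in muscle and 24.1 to 56.6 FPKM in WAT. Ddit3, which encodes CHOP, a factor of the late response tied to cell death, stayed between 4.30 and 15.4 FPKM in all libraries. The reporter chaperone Hspa5 ranged from 54.5 to 202 FPKM in liver, 32.5 to 51.1 FPKM in muscle and 17.1 to 64.4 FPKM in WAT.

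In WAT, PCOS mice given roxadustat were compared with control vehicle mice, a contrast that combines the letrozole model and the drug. Here 6 of the 34 members were called higher (3.14% of the 15499 genes tested were called in that direction), and 0 were called lower, while limma called 5.79% of all genes in either direction. They were the chaperones Hspa5 and Hyou1, the degradation genes Edem1 and Sel1l, the sensor Atf6 and the ATF4 and p53 target Sesn2, which restrains mTORC1. In mm39, the build named in the submitters' processing notes, the deposited tables place Hspa5 at chr2:34661982-34667559 (plus strand), Hyou1 at chr9:44290787-44303666 (plus strand), Edem1 at chr6:108805602-108836317 (plus strand), Sel1l at chr12:91772817-91815931 (minus strand), Atf6 at chr1:170532243-170695340 (minus strand) and Sesn2 at chr4:132219343-132237812 (minus strand), exons and introns included. Over the set, 25 members had a higher and 9 a lower mean log2 level, with a median difference of 0.14 against 0.02 over all genes tested. Of the members, 11 had an unadjusted p under 0.05, against 26.7% of all genes. Groups did not overlap in 9 members, against 12.3% of all genes.

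Hspa5 had 46.5, 55.2, 55.5, 59.2 and 64.4 FPKM in PCOS roxadustat WAT, lowest, median and highest values of 17.1, 47.9 and 62.8 FPKM in PCOS vehicle WAT and 29.2, 30.6, 34.2 and 36.4 FPKM in control vehicle WAT. Every roxadustat mouse lay above every control, while the PCOS vehicle mice spanned both. The difference of roxadustat from control mice was 0.77 on the log2 scale (SE 0.13, limma adjusted p = 0.0177), a ratio of means of 1.72. Hyou1, which exchanges the nucleotide of BiP, had 5.202, 5.32, 5.80, 6.59 and 8.28 FPKM in PCOS roxadustat WAT, lowest, median and highest values of 4.23, 5.63 and 6.93 FPKM in PCOS vehicle WAT and 3.03, 3.72, 4.04 and 4.30 FPKM in control vehicle WAT. The roxadustat and control mice were again apart, with a difference of 0.65 (SE 0.16, limma adjusted p = 0.0432). Of the other 12 chaperones and folding genes 10 had a higher mean log2 level in roxadustat mice and Creld2 and Manf a lower one. The co-chaperone Dnajc3, an inhibitor of PERK, came closest among them at 0.53 (SE 0.14, limma adjusted p = 0.0542) without passing, and its groups did not overlap.

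Among the 7 genes of ER-associated degradation, Edem1 and Sel1l rose. Edem1 had 13.7, 19.4, 19.97, 21.1 and 21.3 FPKM in PCOS roxadustat WAT, lowest, median and highest values of 12.5, 19.2 and 22.8 FPKM in PCOS vehicle WAT and 6.31, 9.44, 9.73 and 10.2 FPKM in control vehicle WAT. All 5 roxadustat mice and all 6 PCOS vehicle mice exceeded the highest control. The difference between roxadustat and control mice was 1.06 (SE 0.18, limma adjusted p = 0.0162), a ratio of means of 2.14. Sel1l, the scaffold of the HRD1 ubiquitin ligase, had 8.35, 12.1, 12.5, 13.6 and 15.4 FPKM in PCOS roxadustat WAT, lowest, median and highest values of 6.27, 12.5 and 14.1 FPKM in PCOS vehicle WAT and 6.01, 6.36, 7.31 and 7.43 FPKM in control vehicle WAT. Roxadustat mice were above all controls, while PCOS vehicle mouse 785 lay among the controls. The difference was 0.80 (SE 0.17, limma adjusted p = 0.0278). Syvn1, the ligase HRD1 itself, differed by 0.36 (SE 0.17, limma adjusted p = 0.219), and Herpud1 and Derl2 had slightly lower mean log2 levels, none of which passed.

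Of the sensors and factors, Atf6 rose. Its level was 3.24, 3.64, 3.80, 4.16 and 4.42 FPKM in PCOS roxadustat WAT, lowest, median and highest values of 2.39, 3.14 and 4.23 FPKM in PCOS vehicle WAT and 2.24, 2.25, 2.35 and 2.67 FPKM in control vehicle WAT. The lowest roxadustat value exceeded the highest control value, and the difference was 0.59 (SE 0.13, limma adjusted p = 0.0336). Eif2ak3 had 2.13, 2.40, 2.48, 2.89 and 3.06 FPKM in PCOS roxadustat WAT, lowest, median and highest values of 0.871, 2.45 and 2.89 FPKM in PCOS vehicle WAT and 0.702, 1.49, 1.91 and 2.07 FPKM in control vehicle WAT. Here too roxadustat and control mice did not overlap, but the difference of 0.65 (SE 0.22, limma adjusted p = 0.0964) did not pass. Ern1, Xbp1, Atf4 and Ddit3 differed by 0.12, 0.08, -0.07 and -0.10 on the log2 scale, with limma adjusted p of 0.724, 0.782, 0.857 and 0.83.

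The ATF4 targets and feedback genes did not move together. Sesn2 had 6.27, 10.5, 11.2, 12.2 and 15.9 FPKM in PCOS roxadustat WAT, lowest, median and highest values of 4.23, 10.8 and 16.7 FPKM in PCOS vehicle WAT and 2.56, 2.89, 5.37 and 6.91 FPKM in control vehicle WAT. The highest control overlapped the lowest roxadustat mouse, and the difference was 1.29 (SE 0.30, limma adjusted p = 0.0382). Sesn2 shares its strand with an annotated overlapping gene, Gm12981, so reads may be divided between them. Ppp1r15a, which encodes GADD34, the subunit that directs dephosphorylation of eIF2alpha, had 2.17, 2.71, 2.94, 3.91 and 4.47 FPKM in PCOS roxadustat WAT, lowest, median and highest values of 1.69, 2.95 and 4.26 FPKM in PCOS vehicle WAT and 4.70, 4.88, 4.90 and 4.95 FPKM in control vehicle WAT. All PCOS mice of both arms lay under the lowest control, but the difference of -0.55 (SE 0.18, limma adjusted p = 0.0869) did not pass. It overlaps Tulp2 on the opposite strand, and the use of strand was not stated. The pseudokinase Trib3, Chac1 and Asns differed by 0.10, 0.25 and -0.05, with limma adjusted p of 0.785, 0.716 and 0.874. Sec61b, a subunit of the translocation channel, had 12.9, 21.2, 21.3, 22.9 and 28.7 FPKM in PCOS roxadustat WAT, lowest, median and highest values of 13.8, 29.2 and 37.9 FPKM in PCOS vehicle WAT and 30.2, 32.6, 40.2 and 58.7 FPKM in control vehicle WAT. Roxadustat mice were under all controls, at a difference of -0.90 (SE 0.24, limma adjusted p = 0.0539), while Ssr1, of the translocon-associated complex, differed by 0.11.

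**Figure D3:**
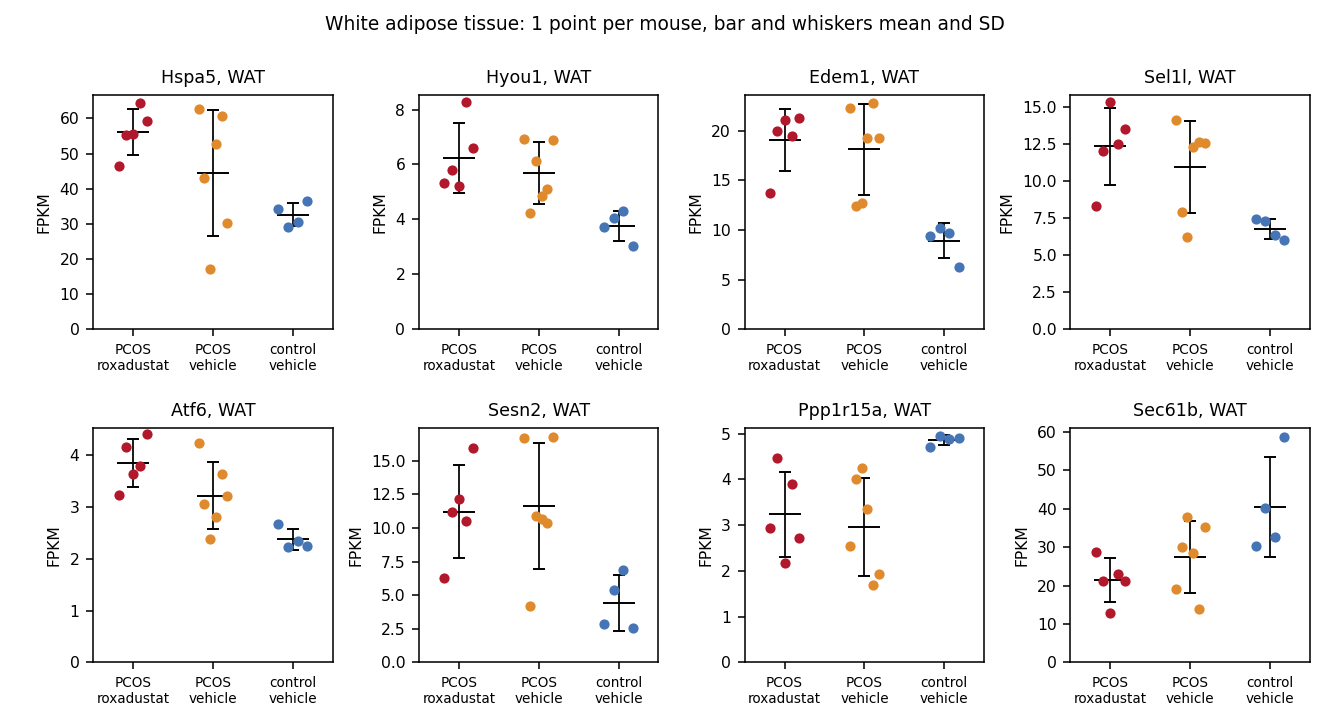
FPKM in WAT of the 6 members called higher in PCOS roxadustat mice than in control vehicle mice and of Ppp1r15a and Sec61b, which were lower and not called. Each point is a mouse (n = 5 PCOS roxadustat, 6 PCOS vehicle and 4 control vehicle), and the bar and whiskers give mean and SD. The PCOS vehicle mice reach from control values to roxadustat values for Hspa5 (17.1 to 62.8 FPKM), while for Edem1 the lowest of them, at 12.5 FPKM, lies above the highest control, at 10.2 FPKM.

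These calls depended on single mice. The direction of the 6 differences did not change in 16 alternative fits. For all but Sesn2 every roxadustat mouse lay above every control, so leaving out mice could not have reversed the direction. The lowest and highest log2 differences were 0.72 and 0.84 for Hspa5, 0.55 and 0.79 for Hyou1, 0.91 and 1.17 for Edem1, 0.72 and 0.93 for Sel1l, 0.52 and 0.67 for Atf6 and 1.09 and 1.52 for Sesn2. Without PCOS roxadustat mouse 809, limma called 0 members, with 100 genes called in all. Without PCOS roxadustat mouse 767 or 795, or control mouse 778, 779 or 802, it called only Hspa5 and Edem1, and without control mouse 789 it called Hspa5, Edem1 and Sesn2. Without PCOS roxadustat mouse 782 it called the same members but Sesn2, and without PCOS roxadustat mouse 764 it called 8 members (the 6, with Dnajc3 higher and Sec61b lower) and 1771 genes in all. Without the libraries in which under 1000 genes had 1 to 3 reads, which left 4 roxadustat and 2 control mice, it called 0 members and 289 genes, and 12 members had an unadjusted p under 0.05.

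Marker genes of other cell types also differed between these arms. The 6 mesothelial markers, all detected, summed to 4.64 to 14.6 FPKM in PCOS roxadustat WAT and 3.63 to 12.0 FPKM in PCOS vehicle WAT, against 23.9 to 54.0 FPKM in control WAT. The 8 macrophage markers summed to 235 to 1049 FPKM, 237 to 456 FPKM and 144 to 233 FPKM, in PCOS roxadustat, PCOS vehicle and control WAT. The 10 plasma and B cell markers summed to 177 to 437 FPKM in roxadustat mice, 57.8 to 512 FPKM in PCOS vehicle mice and 40.8 to 190 FPKM in control mice. Ighm alone averaged 263 FPKM in roxadustat mice, 227 FPKM in PCOS vehicle mice and 55.7 FPKM in control mice, while the plasma cell gene Mzb1 did not exceed 0.0698 FPKM in any WAT library and was listed at 0 in all controls. The 7 adipocyte markers summed to 5512 to 17776 FPKM, 6555 to 39838 FPKM and 15155 to 20772 FPKM in these arms. Mitochondrial genes took 6.60 to 13.6% of reads in roxadustat mice, 6.71 to 14.7% in PCOS vehicle mice and 11.4 to 21.6% in control mice. The part of these shifts in the result was not tested.

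The letrozole model alone, PCOS vehicle against control vehicle, gave no call among the members in WAT. Limma called 0 of 34, against 0.346% of 15603 genes, and voom on the recovered reads also called 0. An unadjusted p under 0.05 was found for 5 members, against 12.1% of all genes, and groups did not overlap in 2, against 3.15% of all genes. In 29 members the mean log2 level was higher in PCOS vehicle mice and in 5 (Hsp90b1, Atf4, Ppp1r15a, Sec61b and Ssr1) lower, with a median difference of 0.19 against 0.0017 over all genes, and with TMM scaling or voom these counts were 28 and 6. Of all 15603 genes, 7834 had a higher mean log2 level. By role, 13 of 14 chaperones, 7 of 7 degradation genes, 5 of 6 sensors and factors, 4 of 5 ATF4 targets and feedback genes and 0 of 2 translocation genes were on the higher side, of which none passed the test.

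Edem1 came closest to the threshold, with 18.1 ± 4.55 FPKM in PCOS vehicle mice (SD, n = 6) and 8.93 ± 1.77 FPKM in control mice (n = 4). The difference was 0.97 (SE 0.22, limma adjusted p = 0.0842), with adjusted p from 0.0285 to 0.286 over 17 alternatives. It passed when all 3 arms were fitted together (adjusted p = 0.0339) and without PCOS vehicle mouse 785 (adjusted p = 0.0285). In the authors' deposited table its adjusted p was 0.00385, at a log2 fold change of 0.99. Sesn2 differed by 1.28 (SE 0.36, limma adjusted p = 0.183) and passed without PCOS vehicle mouse 773 (adjusted p = 0.0467), and the authors' deposited table gave it an adjusted p of 0.0166. Ppp1r15a differed by -0.69 (SE 0.24, limma adjusted p = 0.271) and did not pass, although all 6 PCOS vehicle mice were below the 4 controls. In the authors' deposited table for WAT, 419 genes had an adjusted p under 0.05.

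Roxadustat itself, PCOS roxadustat against PCOS vehicle, gave no call among the 34 members in WAT and 0 of 15320 genes (0%) in all, by limma and by voom. At an unadjusted p under 0.05 there were 0 members, against 1.74% of all genes, and groups overlapped in every member, against 0.0979% of all genes without overlap. Trib3 had 2.33, 3.23, 4.06, 4.65 and 5.15 FPKM in PCOS roxadustat WAT, lowest, median and highest values of 3.20, 4.62 and 10.4 FPKM in PCOS vehicle WAT and 3.05, 3.23, 3.55 and 4.13 FPKM in control vehicle WAT, with all arms overlapping. The members with the lowest p were Trib3 at -0.46 (SE 0.30), Hspa5 at 0.45 (SE 0.29) and Atf6 at 0.24 (SE 0.16), each with a limma adjusted p over 0.99. Of the 6 members higher in roxadustat than in control mice, Edem1 averaged 19.1 ± 3.11 FPKM in roxadustat mice and 18.1 ± 4.55 FPKM in PCOS vehicle mice, and Sesn2 11.2 ± 3.47 FPKM and 11.6 ± 4.68 FPKM (SD, n = 5 and 6). These comparisons share arms, so their values are not independent of each other.

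**Figure D4:**
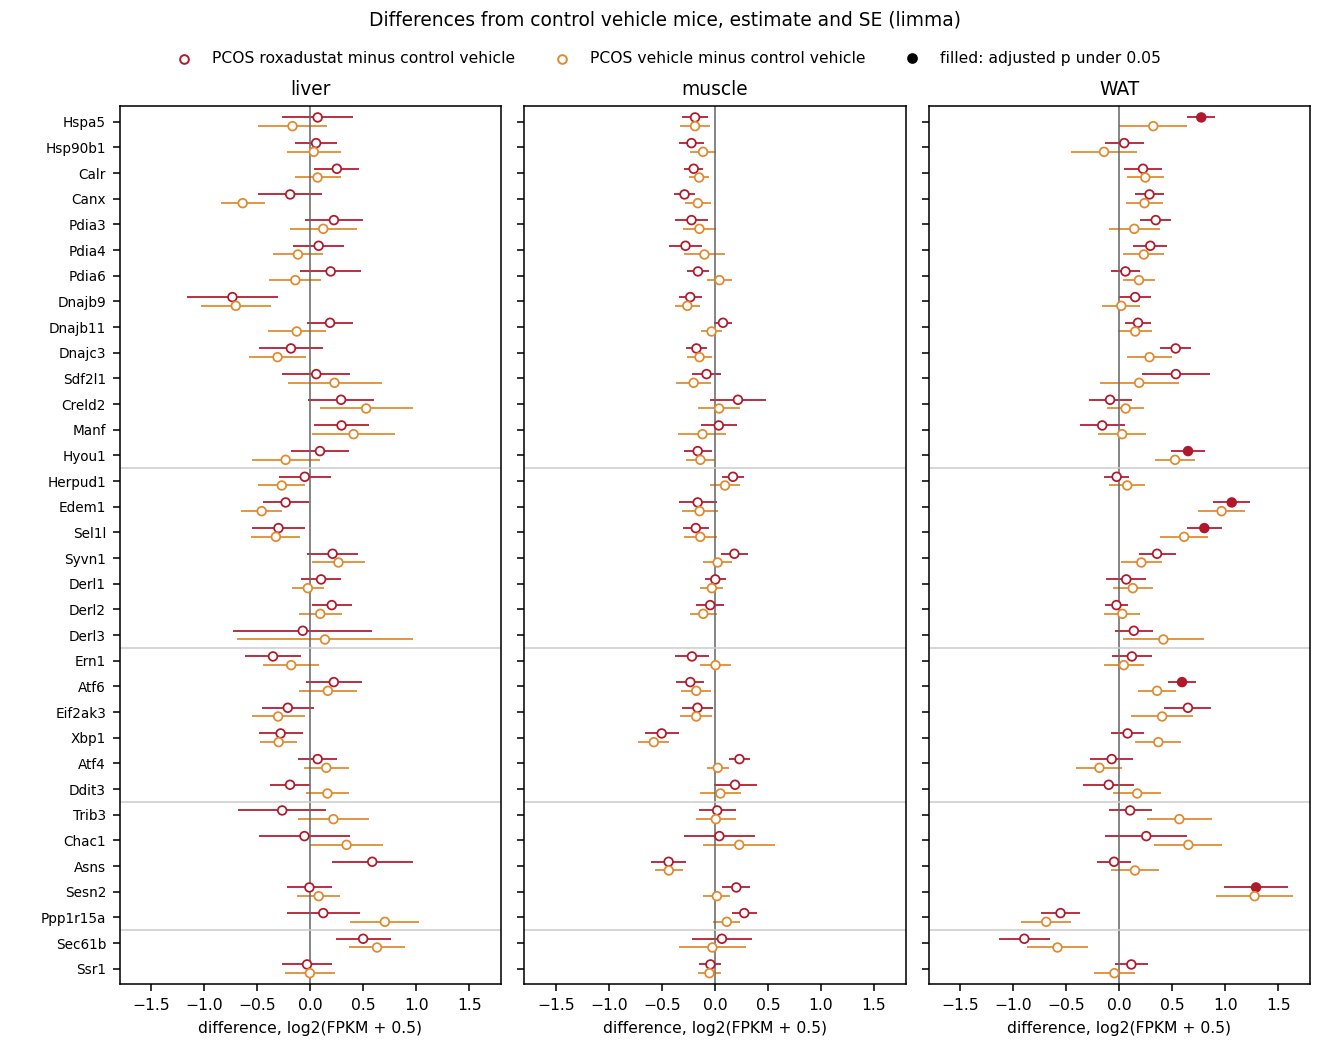
Difference in log2(FPKM + 0.5) of each member from control vehicle mice, with its SE from limma, in liver, muscle and WAT, for PCOS roxadustat mice and PCOS vehicle mice. Filled points passed an adjusted p under 0.05 over all genes tested. The 6 filled points are all in WAT for PCOS roxadustat mice. Both estimates of a gene share the control mice, and Derl3 in muscle and Asns in PCOS vehicle liver were not tested.

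Outside the set, 115 further genes of the same pathways were listed by role, and 110 of them were tested between PCOS roxadustat and control mice in WAT. Limma called 9 higher and 1 lower, against 3.14% of all genes tested called higher and 5.79% in either direction. Their median difference was 0.19, against 0.02 over all genes tested. Among the ER membrane regulators, Creb3l1 and Creb3l2, transcription factors cut in the Golgi as ATF6 is, differed by 1.12 (SE 0.22, limma adjusted p = 0.023) and 0.72 (SE 0.17, adjusted p = 0.0385). Wfs1, an ER membrane protein mutated in Wolfram syndrome, differed by 1.06 (SE 0.20, adjusted p = 0.0227). Edem3, of the same mannosidase-like family as Edem1, differed by 0.73 and Srpr, a subunit of the signal recognition particle receptor, by 0.54 (limma adjusted p = 0.0381 and 0.0382). Of the ATF4 targets, Psat1, Phgdh, Eprs1 and Slc3a2 were called higher, and Psat1, an enzyme of serine synthesis, differed by 0.79 (adjusted p = 0.039). Selenok, a selenoprotein of the degradation machinery, was called lower at -0.62 (adjusted p = 0.0432). Without PCOS roxadustat mouse 809 none of Creb3l1, Creb3l2, Wfs1, Edem3, Srpr and Psat1 passed. Over 16 alternatives Creb3l1 passed in 10, Wfs1 in 8, Srpr in 7, Psat1 in 6 and Creb3l2 and Edem3 in 5 each.

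In muscle, no member was called in any comparison. Between PCOS vehicle and control mice, limma called 0 of 33 members, against 0.104% of 13438 genes, and voom also called 0. Derl3 was too low to be tested. The mean log2 level was higher in 11 members and lower in 22, with a median of -0.11 against -0.0073 over all genes. At an unadjusted p under 0.05 there were 2 members, both lower, against 6.32% of all genes, and groups did not overlap in the same 2, Xbp1 and Asns, against 3.78%.

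Xbp1 had 20.6, 24.4, 24.4 and 30.9 FPKM in PCOS roxadustat muscle, 21.6, 22.1, 25.0 and 25.6 FPKM in PCOS vehicle muscle and 29.7, 30.7, 37.4 and 45.6 FPKM in control vehicle muscle. Every PCOS vehicle mouse lay under every control mouse, and only roxadustat mouse 782 reached into the control range. The difference of PCOS vehicle from control mice was -0.58 (SE 0.14, limma adjusted p = 0.34), a ratio of means of 0.658. It did not pass, while the authors' deposited table gave a log2 fold change of -0.60 with an adjusted p of 0.0264. Asns had 0.197, 0.345, 0.550 and 0.697 FPKM in PCOS roxadustat muscle, 0.276, 0.373, 0.542 and 0.553 FPKM in PCOS vehicle muscle and 0.628, 0.688, 0.830 and 0.892 FPKM in control vehicle muscle. PCOS vehicle mice were again all under the controls, on 8 to 19 reads against 24 to 30 reads, and the difference of -0.43 (SE 0.13, limma adjusted p = 0.527) did not pass. Dnajb9, a co-chaperone that aids disposal of misfolded proteins, had 18.7, 18.9, 20.1 and 21.4 FPKM in PCOS roxadustat muscle, 17.6, 18.3, 19.7 and 22.1 FPKM in PCOS vehicle muscle and 19.8, 23.3, 24.9 and 25.6 FPKM in control vehicle muscle. Its groups overlapped, at a difference of -0.26 (SE 0.12, limma adjusted p = 0.783).

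Between PCOS roxadustat and PCOS vehicle muscle, limma called 0 of 33 members and 0% of 13296 genes, and voom called 0 members. At an unadjusted p under 0.05 there were 0 members, against 2.41% of all genes, and every member overlapped, against 1.61% of all genes without overlap. The lowest p belonged to Pdia6, a disulfide isomerase, to Atf4 and to Ern1. Pdia6 had 9.86, 10.7, 11.4 and 11.8 FPKM in PCOS roxadustat muscle, 10.7, 12.6, 12.9 and 14.6 FPKM in PCOS vehicle muscle and 11.4, 12.1, 12.1 and 13.5 FPKM in control vehicle muscle, a roxadustat difference from PCOS vehicle mice of -0.20 (SE 0.11). Atf4 had 87.8, 89.3, 97.8 and 105 FPKM in PCOS roxadustat muscle, 75.1, 77.0, 87.8 and 89.5 FPKM in PCOS vehicle muscle and 74.0, 79.2, 82.8 and 87.0 FPKM in control vehicle muscle, a difference of 0.20 (SE 0.11). The arms of both genes overlapped. Ern1 had 1.22, 1.33, 1.61 and 2.06 FPKM in PCOS roxadustat muscle, 1.53, 1.73, 2.11 and 2.17 FPKM in PCOS vehicle muscle and 1.59, 1.69, 1.90 and 2.33 FPKM in control vehicle muscle. Its arms overlapped as well, and it differed by -0.22 (SE 0.16), and all 3 had a limma adjusted p over 0.99.

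Between PCOS roxadustat and control muscle, limma called 0 of 33 members, against 0.349% of 13468 genes, and voom called 0 members. There were 6 members at an unadjusted p under 0.05, against 11.3% of all genes. Of these, 2 were higher and 4 lower. Groups did not overlap in 3 members, against 6.24% of all genes. The median difference was -0.16 against -0.014 over all genes. Without PCOS roxadustat mouse 782 or 808 or control mouse 801 the member median was -0.0819, -0.0582 and -0.0735. Canx, the membrane-bound lectin chaperone, had 15.8, 16.3, 16.4 and 17.8 FPKM in PCOS roxadustat muscle, 15.2, 17.9, 18.8 and 21.1 FPKM in PCOS vehicle muscle and 18.8, 18.9, 21.5 and 22.3 FPKM in control vehicle muscle. Roxadustat mice were all under the controls, with PCOS vehicle mice across both, and the difference was -0.29 (SE 0.10, limma adjusted p = 0.337). Calr, its soluble counterpart, had 48.0, 50.3, 51.6 and 53.0 FPKM in PCOS roxadustat muscle, 49.4, 50.8, 52.4 and 58.0 FPKM in PCOS vehicle muscle and 56.1, 57.2, 57.5 and 62.5 FPKM in control vehicle muscle. It showed the same separation of roxadustat from control mice, at -0.20 (SE 0.09). In Atf4, roxadustat mice were all above the controls, at 0.23 (SE 0.10). Xbp1 differed by -0.50 (SE 0.16, limma adjusted p = 0.315) and Asns by -0.44 (SE 0.17, limma adjusted p = 0.379).

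Of the further pathway genes, 109 were tested in PCOS vehicle against control muscle and 1 was called, against 0.104% of all genes tested. It was Stc2, a secreted glycoprotein induced by ATF4. It had 0.457, 0.622, 1.08 and 1.30 FPKM in PCOS roxadustat muscle, 0.422, 0.575, 0.620 and 0.831 FPKM in PCOS vehicle muscle and 1.93, 2.01, 2.28 and 2.55 FPKM in control vehicle muscle. All PCOS mice of both arms lay under the lowest control, at a PCOS vehicle difference of -1.28 (SE 0.14, limma adjusted p = 0.007). With no filter on low values this call was lost (adjusted p = 0.0623), while it passed in the other 12 alternatives. For roxadustat against control mice it differed by -1.02 (SE 0.20, limma adjusted p = 0.0806) and did not pass, although it did with voom (-1.46, adjusted p = 0.0387) and with all 3 arms in 1 fit (adjusted p = 0.0496). Adipocyte markers in these muscles summed to 33.9 to 158 FPKM in roxadustat mice, 46.7 to 111 FPKM in PCOS vehicle mice and 64.7 to 319.5 FPKM in control mice, and the 10 plasma and B cell markers to 109 to 169 FPKM, 41.7 to 142 FPKM and 37.7 to 89.1 FPKM in these arms. Their part in the result was not tested.

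In liver, no member was called either. Between PCOS vehicle and control mice, limma called 0 of 33 members, against 0.82% of 14021 genes, and voom called 0 members. The mean log2 level was higher in 17 members and lower in 16, with a median of 0.03 against 0.0030 over all genes. For 3 members the unadjusted p was under 0.05, against 11.2% of all genes, and groups did not overlap in Canx alone, against 7.09% of all genes. Canx had 20.6, 27.7, 30.1 and 58.2 FPKM in PCOS roxadustat liver, 19.9, 21.6, 25.5 and 25.8 FPKM in PCOS vehicle liver and 27.9, 30.4, 44.5 and 45.5 FPKM in control vehicle liver. Every PCOS vehicle mouse was under every control, and roxadustat mouse 808 was above all other livers. The difference of PCOS vehicle from control mice was -0.64 (SE 0.21, limma adjusted p = 0.272) and did not pass. Edem1 had 13.4, 17.4, 18.7 and 26.7 FPKM in PCOS roxadustat liver, 11.9, 16.3, 16.6 and 19.0 FPKM in PCOS vehicle liver and 18.7, 21.1, 21.3 and 27.1 FPKM in control vehicle liver. PCOS vehicle mouse 785 exceeded the lowest control, and the difference was -0.46 (SE 0.19, limma adjusted p = 0.411). Sec61b had 50.1, 54.9, 56.9 and 76.9 FPKM in PCOS roxadustat liver, 51.1, 61.4, 64.8 and 85.3 FPKM in PCOS vehicle liver and 26.0, 39.3, 45.9 and 63.5 FPKM in control vehicle liver, with overlapping groups and a difference of 0.63 (SE 0.27, limma adjusted p = 0.415).

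Between PCOS roxadustat and PCOS vehicle livers, limma called 0 of 34 members and 0% of 14015 genes, and voom called 0 members. At an unadjusted p under 0.05 there was 1 member, Ppp1r15a, against 2.93% of all genes, and its groups were the 1 set that did not overlap, against 1.64% of all genes. Ppp1r15a had 4.41, 5.13, 7.01 and 7.34 FPKM in PCOS roxadustat liver, 8.10, 8.80, 8.82 and 10.4 FPKM in PCOS vehicle liver and 2.48, 4.88, 6.54 and 9.82 FPKM in control vehicle liver. Roxadustat mice were all under the PCOS vehicle mice, while control mice spanned both arms. The difference was -0.58 (SE 0.20, limma adjusted p over 0.99). Ddit3 had 6.41, 7.06, 7.97 and 9.70 FPKM in PCOS roxadustat liver, 7.64, 9.44, 10.4 and 13.1 FPKM in PCOS vehicle liver and 7.66, 8.51, 8.70 and 10.9 FPKM in control vehicle liver, an overlapping difference of -0.35 (SE 0.20). Asns had 0.0216, 0.299, 0.495 and 1.63 FPKM in PCOS roxadustat liver, 0, 0.0308, 0.223 and 0.359 FPKM in PCOS vehicle liver and 0, 0.0252, 0.263 and 0.377 FPKM in control vehicle liver. PCOS roxadustat mouse 795 was above all other livers, and the difference was 0.61 (SE 0.37) on 0 to 58 reads per library.

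Between PCOS roxadustat and control livers, limma called 0 of 34 members and 0% of 14152 genes. Voom called 0 members and 2 genes. No unadjusted p of a member was under 0.05, against 8.11% of all genes, and every member overlapped, against 4.01% of all genes without overlap. Dnajb9 had 5.16, 7.15, 7.84 and 26.6 FPKM in PCOS roxadustat liver, 6.31, 6.60, 12.2 and 17.0 FPKM in PCOS vehicle liver and 10.6, 16.7, 17.1 and 22.1 FPKM in control vehicle liver. Roxadustat mouse 808 stood far above the other 3, and the difference was -0.74 (SE 0.43, limma adjusted p = 0.669). Sec61b differed by 0.50 (SE 0.26, limma adjusted p = 0.637) and Asns by 0.58 (SE 0.38, limma adjusted p = 0.693).

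Single mice were at the extreme of many members at once. In liver, roxadustat mouse 808 had the highest value of its arm in 23 of 34 members (67.6%), against 31.3% of 11398 genes of at least 1 FPKM, and roxadustat mouse 782 the lowest in 21 (61.8%, against 27.1%). PCOS vehicle mouse 770 was lowest in 19 members (55.9%, against 26.7%) and control mouse 802 in 16 (47.1%, against 25.3%). PCOS vehicle mouse 773 was highest in 18 members (52.9%, against 37.7%) and control mouse 789 in 15 (44.1%, against 22.5%). In muscle the largest such count was 14 members (41.2%, against 27.7%), in which PCOS vehicle mouse 770 was highest. In WAT, roxadustat mouse 782 was lowest of its arm in 20 members (58.8%, against 38.9%) and mouse 795 highest in 16 (47.1%, against 17.1%). The median coefficient of variation of the members was 26.3%, 23.8% and 29.9% in PCOS roxadustat, PCOS vehicle and control livers. In muscle of these arms it was 12.4%, 13.3% and 14.7%, and in WAT 17.23%, 24.13% and 16.04%. The value over all genes is not given here, so a spread particular to the members cannot be told from that of the libraries.

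**Figure D5:**
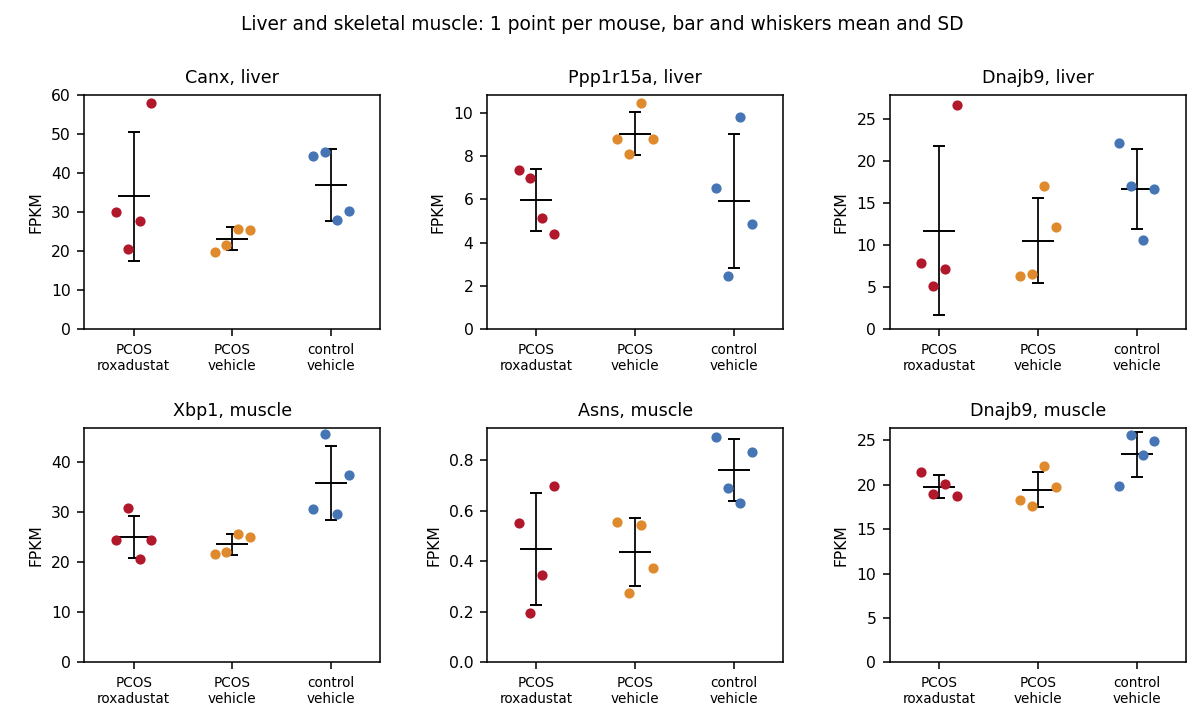
FPKM of Canx, Ppp1r15a and Dnajb9 in liver and of Xbp1, Asns and Dnajb9 in muscle, for each mouse (n = 4 per arm), with mean and SD. These are some of the members of lowest p in a comparison, and others are not shown. None was called. In muscle the PCOS vehicle mice have Xbp1 at 21.6 to 25.6 FPKM, under the control mice at 29.7 to 45.6 FPKM, and in liver roxadustat mouse 808 stands apart in Dnajb9 at 26.6 FPKM.

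Whether the change with the letrozole model differed between tissues was tested as an interaction. For WAT minus liver, 1 of 34 members was called, Edem1, against 0.755% of 16418 genes, and 7 members had an unadjusted p under 0.05, against 14.4% of all genes. The change of Edem1 was 0.97 in WAT and -0.46 in liver, and their difference was 1.43 (SE 0.30, limma adjusted p = 0.0297). The replicate block for mouse gave an adjusted p of 0.0305, and voom gave 0.0623 and no call. The call was lost without liver PCOS vehicle mouse 773, liver control mouse 789 or 804, WAT PCOS vehicle mouse 796 or 822, or WAT control mouse 778 or 802. Liver and WAT RNA were prepared with different kits, and kit and tissue cannot be told apart.

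For WAT minus muscle, 0 of 34 members were called, against 0.154% of 16227 genes, and voom called 0. There were 7 members at an unadjusted p under 0.05, against 9.79% of all genes. The lowest p belonged to Edem1 at 1.11 (SE 0.30, limma adjusted p = 0.157) and Xbp1 at 0.94 (SE 0.27, limma adjusted p = 0.214). For muscle minus liver, 0 members were called, against 0.503% of 15100 genes, 0 had an unadjusted p under 0.05, against 7.23% of all genes, and the lowest p were those of Canx at 0.48 (SE 0.24, limma adjusted p = 0.721) and Ppp1r15a at -0.59 (SE 0.37, limma adjusted p = 0.783). Outside the set, Stc2 differed by 1.65 (SE 0.29, limma adjusted p = 0.0279) for WAT minus muscle and by -1.32 (SE 0.18, limma adjusted p = 0.00122) for muscle minus liver. The first of these passed in 11 of 23 alternatives. The second passed in 20 of 21 and was lost with voom (-2.34, adjusted p = 0.878).

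The change with roxadustat did not give a call in any pair of tissues, by limma or voom. For WAT minus liver, 0% of 16540 genes were called, and 1 member (Ppp1r15a) had an unadjusted p under 0.05, against 2.04% of all genes. Ppp1r15a differed by 0.72 (SE 0.33, limma adjusted p over 0.99) and Asns by -0.80 (SE 0.43, limma adjusted p over 0.99). For WAT minus muscle, 0% of 16150 genes were called and 0 members had an unadjusted p under 0.05, against 1.36%, the lowest p being those of Atf6 at 0.29 (SE 0.20, limma adjusted p over 0.99) and Xbp1 at -0.36 (SE 0.27, limma adjusted p over 0.99). For muscle minus liver, 0% of 15119 genes were called and 1 member had an unadjusted p under 0.05, against 2.67%. That was Ppp1r15a at 0.75 (SE 0.23, limma adjusted p over 0.99), followed by Ddit3 at 0.49 (SE 0.24, limma adjusted p over 0.99).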

How the data were processed

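The data are 39 poly-A libraries from 18 mice. Per the labels, RNA of liver and muscle was prepared with one kit and RNA of WAT with another, from 300 ng, and it is not said which libraries were directional. Per the submitters' processing notes, the tools were CASAVA 1.8, HISAT2 2.0.5 and DESeq2 1.20.0, with build mm39. The counting tool and annotation are not given in the sources used here. Per the file headers, the deposited values were FPKM, with the authors' log2 fold changes and the authors' p-values and adjusted p-values in the same tables, 1 per tissue and pair of arms.

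Multiplied by gene length, 100% of FPKM values came to whole numbers of reads (tolerance 0.001) once divided by each library's smallest unit, which gave reads per gene for the depth, for the filter and for voom as a count-based alternative. A gene was tested if the number of libraries with 10 depth-scaled reads or more reached the size of the smaller arm, and if it had 15 reads in total. Each pair of arms was fitted alone with limma 3.58.1 (trend, R 4.3.3) on log2(FPKM + 0.5), with Benjamini-Hochberg adjustment over all genes tested and a threshold of 0.05. A fold change on this scale understates the change of low genes. Trimmed mean of M-values (TMM) factors were computed from the recovered reads. The fits were also run on simulated data with known changes, and the share of changes recovered is not given here. Within a tissue the p-values measure the spread between mice. For differences between tissues they measure the spread between libraries, some of which share a mouse.

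The members and lists were chosen with earlier results of these data known. Named were members called within a tissue, the 3 members of lowest p in each comparison, the sensors with Hspa5, Xbp1, Atf4 and Ddit3, up to 4 members by lowest p whose groups do not overlap, and of the other pathway genes up to 6 called ones by lowest p or else the 1 of lowest p. Eprs1, Phgdh, Slc3a2 and Selenok were added after their values were seen, to complete the called genes. In interactions, called members were named, or else the 2 of lowest p. Nars1 and Amy2b, of the lists, were not analysed here.

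The same mouse gave several tissues. Deviations from the arm mean correlated between tissues of a mouse with a median of 0.0686 (WAT with liver, 9 mice), -0.0365 (WAT with muscle, 9 mice) and 0.00567 (muscle with liver, 12 mice). The main fits of differences between tissues had no block and treated the libraries of a mouse as independent. The replicate block for mouse was fitted for them as an alternative. Within a tissue no mouse was in more than 1 arm.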

Additional observations from a re-analysis of the deposited data

Results flagged for a closer look

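Dnajb9 in liver of PCOS roxadustat mouse 808 was 26.6 FPKM, far above the other 3 mice of its arm, with a gap of 0.875 of the range in an arm of 4 mice, past Dixon's limit. Edem1 in WAT of PCOS roxadustat mouse 764 was 13.7 FPKM, below the other 4 mice of its arm, with a gap of 0.758 of the range in an arm of 5 mice, past Dixon's limit. Of 52 groups of values examined in this way, 2 had such a mouse, and chance gives about 1 in 20.

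The change of Edem1 between PCOS vehicle and control mice differed between WAT and liver by 1.43 on the log2 scale (limma adjusted p = 0.0297), with a mean of 18.1 FPKM in PCOS vehicle WAT and 8.93 FPKM in control WAT, and 15.96 FPKM in PCOS vehicle liver and 22.0 FPKM in control liver.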

How the results depend on the processing

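No gene followed through the alternative fits reversed its direction. Most of these fits could hardly reverse one. Leaving out mice cannot do so where groups do not overlap. Within a tissue, dropping the filter or fitting all 3 arms together leaves the difference itself unchanged. In WAT, PCOS roxadustat against control mice, the 6 members called became 2 with no filter on low values, 1 with all 3 arms in 1 fit and 0 without the libraries in which under 1000 genes had 1 to 3 reads, an alternative chosen after seeing the data, and 0 to 8 when single mice were left out. It was 6 with log2(FPKM + 1) and with TMM, 7 with voom and 9 with a term for those libraries, also chosen after seeing the data. Over all genes the 897 calls became 197 with no filter, 61 with 3 arms in 1 fit, 289 without those libraries, 1814 with the term and 100 to 1771 with single mice left out. For PCOS vehicle against control mice in WAT the 0 members called became 1 with 3 arms in 1 fit and 0 to 1 with single mice left out. For the difference between WAT and liver in that change, the 1 member called became 0 with voom, which moved the median of all genes from 0.0098 to -0.116, and 0 to 3 with single libraries left out. For WAT minus muscle the 0 became 0 to 1. The replicate block for mouse left 1 member called for WAT minus liver, with an adjusted p of 0.0305 for Edem1, and changed no other call of a member. The other causes were not tested. Depth limits the low genes, such as Asns in liver and muscle and Derl3 in muscle.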

Other observations

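Among the other pathway genes, the 1 of lowest p did not pass in these comparisons. Psat1 in WAT differed by 0.98 on the log2 scale in PCOS vehicle against control mice (limma adjusted p = 0.0562). It passed in 5 of 17 alternatives, which were all 3 arms in 1 fit, a term for the libraries in which under 1000 genes had 1 to 3 reads, and the fits without PCOS vehicle mouse 773 or 785 or control mouse 789. Spcs1, a subunit of the signal peptidase, differed by -0.83 in PCOS vehicle against control livers (limma adjusted p = 0.137), and Vldlr by -1.18 in PCOS roxadustat against control livers (limma adjusted p = 0.328). Vldlr passed in 1 of 15 alternatives, the fit without PCOS roxadustat mouse 808. In WAT of PCOS vehicle mouse 785, which had the highest adipocyte marker sum of all WAT libraries at 39838 FPKM, Xbp1 was 105 FPKM, the highest of all WAT libraries, and Hspa5 was 17.1 FPKM, the lowest. This library also had the fewest recovered reads (13664558), genes with a read (14082) and genes of 1 to 3 reads (316) in WAT. The part of library quality or cell content in these values was not tested.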
